A study of Homo sapiens with 9 samples.

Results

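The receptors of 2 families of neuronal growth factors were followed in 3 human neuroblastoma cell lines. The genes were taken by name from the deposited table: NTRK2, NTRK3, NGFR and SORT1 for the neurotrophins, and RET, GFRA1, GFRA2 and GFRA3 for the glial cell line-derived neurotrophic factor (GDNF) family. All 8 were among the 19706 usable gene symbols. Polyadenylated RNA was sequenced from untreated cells of Kelly and BE(2)C, whose MYCN gene is amplified, and of SH-SY5Y, whose MYCN gene is not, with 3 libraries per line and 9 in all. Each group is a single established line, and BE(2)C and SH-SY5Y are clonal sublines, so MYCN status and the identity of a line cannot be told apart. Whether the libraries of a line are separate cultures is not stated in the labels; the p-values therefore reflect the spread among these libraries alone, which may be technical.

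Neurotrophins are secreted proteins that keep developing neurons alive. Each binds a receptor kinase of the Trk family: TrkB, encoded by NTRK2, takes brain-derived neurotrophic factor and neurotrophin-4, and TrkC, encoded by NTRK3, takes neurotrophin-3. All of them also bind p75NTR, the death-domain receptor encoded by NGFR, and sortilin, encoded by SORT1, joins p75NTR to bind uncleaved pro-neurotrophins. GDNF-family ligands signal through 1 shared kinase, RET, which they reach by way of a lipid-anchored co-receptor: GDNF prefers GFRA1, neurturin GFRA2 and artemin GFRA3. In the sympathetic nervous system, where neuroblastoma arises, both systems act during the growth and differentiation of precursors.

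The upstream stretches of 4 of these genes are shown. RET and GFRA1 were chosen because their scaled levels differed between lines, and the Trk genes NTRK2 and NTRK3 as both highest in SH-SY5Y. Sequences are RefSeq's, on GRCh38.p14, written 5′ to 3′ on the strand of the gene. Each is the part of the 250 bases before the gene's most upstream RefSeq start that holds no GENCODE exon of that gene. The stretches are chr10:43076819-43077026 for RET (plus strand), chr10:116274706-116274955 for GFRA1 (minus strand), chr9:84669056-84669301 for NTRK2 (plus strand) and chr15:88256769-88256989 for NTRK3 (minus strand). The NTRK2 stretch lies inside the GENCODE span of that gene, before the RefSeq start. The GFRA1 stretch does not adjoin the GENCODE span of that gene, whose upstream end is at chr10:116273467. Only the most upstream of the listed starts was searched, out of 4 for GFRA1, 4 for NTRK2, 2 for RET and 1 for NTRK3. Which start these cells use was not tested. Capitals mark matches to the motifs named after them.
RET: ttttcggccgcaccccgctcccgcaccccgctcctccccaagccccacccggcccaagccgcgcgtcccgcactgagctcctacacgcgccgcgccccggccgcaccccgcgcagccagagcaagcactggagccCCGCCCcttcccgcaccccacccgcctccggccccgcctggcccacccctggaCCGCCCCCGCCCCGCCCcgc
GFRA1: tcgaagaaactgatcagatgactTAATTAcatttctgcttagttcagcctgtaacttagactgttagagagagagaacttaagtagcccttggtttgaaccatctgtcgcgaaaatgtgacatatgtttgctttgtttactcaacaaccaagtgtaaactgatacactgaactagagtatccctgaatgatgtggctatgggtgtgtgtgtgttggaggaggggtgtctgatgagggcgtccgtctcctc
NTRK2: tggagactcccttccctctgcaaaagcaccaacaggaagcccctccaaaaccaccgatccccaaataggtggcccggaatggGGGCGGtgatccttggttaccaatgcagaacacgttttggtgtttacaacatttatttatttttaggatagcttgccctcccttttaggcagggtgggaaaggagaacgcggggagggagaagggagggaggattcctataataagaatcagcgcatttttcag
NTRK3: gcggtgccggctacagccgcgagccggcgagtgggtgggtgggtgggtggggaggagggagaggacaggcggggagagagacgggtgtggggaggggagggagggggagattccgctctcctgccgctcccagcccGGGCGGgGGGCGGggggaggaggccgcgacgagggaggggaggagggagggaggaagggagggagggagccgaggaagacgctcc
Motifs were searched on both strands of the full 250 bases, and the counts refer to those. The GC box is GGGCGG on either strand, and its matches in the RET stretch lie on the opposite strand, so that its complement is what is capitalized; neighbouring matches may share bases. RET held 5 GC boxes in a window of 79.6% G and C with 33 CpG dinucleotides, NTRK3 held 2 and NTRK2 held 1. GFRA1 held no GC box, 43.2% G and C and 5 CpG dinucleotides. It held 1 match to TAATTA, the core motif of homeodomain proteins. Of 27305 genes in the promoter table, 42.2% had a GC box and 4.52% the homeodomain core in the same window. The E-box of the MYC family, CACGTG, which 6.46% of genes have there, was in none of the windows of the 6 receptor genes matched in that table. The other searched motifs were also not in these windows: the E-box CAGCTG has a match in 13.8% of genes, the GATA motif AGATAA in 9.4% and the TATA box, searched as TATAAA, in 11.2%.

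On GRCh38 (GENCODE release 29), the neurotrophin receptor genes lie at chr9:84668551-85027070 (NTRK2), chr15:87859751-88256768 (NTRK3), chr17:49495293-49515017 (NGFR) and chr1:109309568-109397951 (SORT1). The GDNF-family receptor genes lie at chr10:43077027-43130351 (RET), chr10:116056925-116273467 (GFRA1), chr8:21690403-21812357 (GFRA2) and chr5:138252379-138274671 (GFRA3). All are protein-coding. NTRK2 has 8 annotated transcripts whose complete proteins run from 477 to 838 residues, and NTRK3 has 21, with complete proteins of 612 to 864. The shorter forms include truncated receptors without a full kinase domain, and the deposited table gives 1 value per gene, so the forms cannot be told apart. Genes annotated on the opposite strand overlap NTRK3 (1), NGFR (2) and GFRA2 (1), and the sources used here do not state whether strand was used to assign reads.

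Levels are scaled TPM: the deposited log10(TPM + 1) values were back-transformed, rescaled to the total over genes without the ERCC spike-ins, and divided by a trimmed-mean factor. TPM is per transcript length, but it keeps no depth, so the depth of the libraries is unknown and no counting interval is given. Spike-ins took 83.7% to 90.6% of each library. Among the 61 spike-ins whose mean was 10 or more deposited TPM, the largest log2 difference was 1.42 for Kelly against SH-SY5Y and 1.24 for Kelly against BE(2)C. For BE(2)C against SH-SY5Y it was 0.18. For Kelly differences smaller than 1.42 against SH-SY5Y or 1.24 against BE(2)C, a difference between libraries and one between lines cannot be told apart. This covers the Kelly differences given below for RET, GFRA3, NTRK2, NTRK3 and SORT1, and those of listed genes under these sizes. It also covers the differences of NGFR and GFRA2 between Kelly and BE(2)C. The regulators of sympathetic neurons HAND2 and GATA3 were present in all 9 libraries, the lowest value being 287 scaled TPM for GATA3 in BE(2)C. They belong to a list of 14 sympathoadrenal identity genes. All 14 averaged 1 scaled TPM or more in Kelly and BE(2)C, but only 12 did so in SH-SY5Y. INSM1 was listed at 0 in every SH-SY5Y library, against means of 22.6 for Kelly and 3.91 for BE(2)C. TH averaged 0.191 for SH-SY5Y, against 480 for Kelly and 39.9 for BE(2)C. The 12 markers of leukocytes, epithelium, liver, blood, endothelium and muscle summed to 5.78 to 9.89 scaled TPM in Kelly, 16.05 to 17.4 in BE(2)C, against 4.79 to 9.0002 in SH-SY5Y. Of the 14 sympathoadrenal identity genes, 9 were higher and 5 lower in Kelly than in SH-SY5Y, and 7 were higher and 6 lower in BE(2)C, a balance that turned to 6 higher and 7 lower in both with deposited values. Over all tested genes, 28.1% were higher and 27.2% lower in Kelly, and 28.6% higher and 30.7% lower in BE(2)C. In Kelly against BE(2)C, 27.9% were higher and 24.6% lower. Every count of called list genes or neighbours below is to be read beside these shares. Of 3 testable markers of other cell types, 1 was called against SH-SY5Y, higher in BE(2)C.

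**Figure D1:**
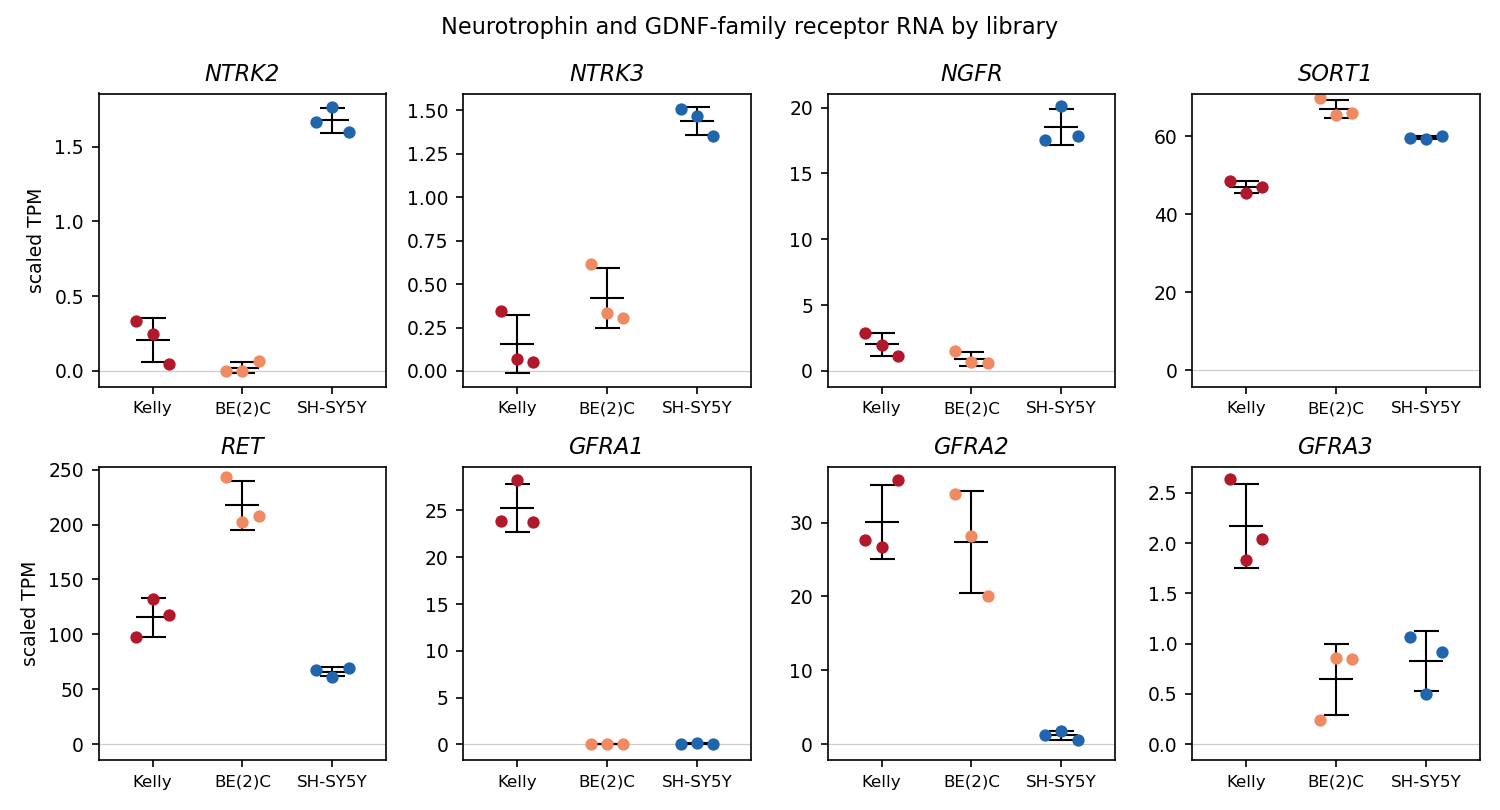
RNA level in scaled TPM (y axis, linear) of each receptor gene in the libraries of Kelly, BE(2)C and SH-SY5Y (x axis); points are libraries, bars the mean ± SD (n = 3). GFRA1 stood above 23 in Kelly and below 0.14 elsewhere, GFRA2 was low in SH-SY5Y, and NTRK2, NTRK3 and NGFR were highest in SH-SY5Y.

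RET was the most abundant receptor of the 8 in every library, and its scaled levels did not overlap between the 3 lines. RET RNA stood at 97.2, 133 and 117 scaled TPM in Kelly replicates 1 to 3, at 243, 202 and 208 in BE(2)C and at 67.4, 61.6 and 69.0 in SH-SY5Y. The libraries of the lines did not overlap: all of BE(2)C were above all of Kelly, and all of Kelly above all of SH-SY5Y. These are bulk RNA libraries, in which fewer cells with a transcript and less RNA per cell cannot be told apart. The RET level of BE(2)C exceeded that of SH-SY5Y by 1.70 ± 0.12 on the log2 scale (SE; limma, adjusted p = 2.42e-06), and Kelly differed from BE(2)C by a log2 fold change of -0.91 ± 0.12 (adjusted p = 1.79e-04). Kelly was above SH-SY5Y by 0.79 ± 0.12 (adjusted p = 3.95e-04). That last call was lost when the values were used as deposited (0.08, limma adjusted p = 0.705). Kelly libraries (8.98 to 15.2 deposited TPM) then overlapped those of SH-SY5Y (11.3 to 11.8). Both Kelly differences are smaller than the largest spike-in difference of the same comparison. Of the 7 tested genes within 500 kb of RET, 0 were called higher and 4 lower in BE(2)C than in SH-SY5Y, 0 higher and 2 lower in Kelly than in SH-SY5Y, and 3 higher and 2 lower in Kelly than in BE(2)C.

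GFRA1, the preferred co-receptor of GDNF, was high in Kelly and at or near 0 elsewhere. Its level was 23.9, 28.2 and 23.7 scaled TPM in Kelly, against 0, 0 and 0.0348 in BE(2)C and 0.0272, 0.132 and 0.0204 in SH-SY5Y. Only Kelly had a level above 1, and the 6 other libraries lay at or near 0. Kelly exceeded SH-SY5Y by 4.63 ± 0.15 and BE(2)C by 4.70 ± 0.15 on the log2(scaled TPM + 1) scale (SE; limma, adjusted p = 3.37e-08 and 5.48e-08), which understates the change of a gene this low in the other lines. In Kelly against SH-SY5Y, 0.857% of tested genes differed by as much or more in either direction. GFRA1 reached 1 scaled TPM in 3 libraries of Kelly, 0 of BE(2)C and 0 of SH-SY5Y. It was thus tested only through Kelly, which limits what its higher calls and this share show. BE(2)C and SH-SY5Y differed by -0.07 ± 0.15 (adjusted p = 0.731, 95% interval -0.41 to 0.28). The 2 tested genes within 500 kb of GFRA1 were both lower in Kelly than in SH-SY5Y, at log2 fold changes of -0.87 and -0.60. In Kelly against BE(2)C, 1 of them was higher, at 4.33, and the other, at -0.15, was not called.

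GFRA2, the preferred co-receptor of neurturin, was high in both MYCN-amplified lines. It stood at 27.7, 26.7 and 35.8 scaled TPM in Kelly and at 33.8, 28.1 and 20.1 in BE(2)C, against 1.26, 1.84 and 0.556 in SH-SY5Y. Every Kelly and BE(2)C library was above every SH-SY5Y library, while Kelly and BE(2)C overlapped. The log2 fold change over SH-SY5Y was 3.84 ± 0.26 in Kelly (limma, adjusted p = 2.61e-06) and 3.69 ± 0.26 in BE(2)C (adjusted p = 2.94e-06); both comparisons share the SH-SY5Y libraries. Kelly and BE(2)C differed by 0.15 ± 0.26 (adjusted p = 0.667), with a 95% interval of -0.45 to 0.75. Among the 12 tested genes within 500 kb of GFRA2, 3 were higher and 6 lower in Kelly than in SH-SY5Y, and 1 was higher and 5 lower in BE(2)C.

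GFRA3, the preferred co-receptor of artemin, was the least abundant co-receptor in Kelly. It was at 2.64, 1.83 and 2.04 scaled TPM in Kelly, at 0.237, 0.853 and 0.844 in BE(2)C and at 1.07, 0.495 and 0.918 in SH-SY5Y. Kelly libraries were above those of both other lines, which overlapped each other. GFRA3 reached 1 scaled TPM in 3 libraries of Kelly, 0 of BE(2)C and 1 of SH-SY5Y. It was thus tested only through Kelly, which limits what its higher calls there show. Kelly was higher than BE(2)C by 0.96 ± 0.22 (limma, adjusted p = 0.00498) and higher than SH-SY5Y by 0.80 ± 0.22 (adjusted p = 0.0122), which was lost when the values were used as deposited (0.10; adjusted p = 0.110). BE(2)C against SH-SY5Y gave -0.16 ± 0.22 (adjusted p = 0.547, 95% interval -0.66 to 0.33).

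Set side by side on the TPM scale, the co-receptors made up different mixtures in the 3 lines. GFRA1, GFRA2 and GFRA3 summed to 57.5 ± 3.72 scaled TPM in Kelly, to 28.0 ± 6.58 in BE(2)C and to 2.11 ± 0.534 in SH-SY5Y (mean ± SD, n = 3 each). In Kelly the sum was 44.1 ± 5.58% GFRA1 and 52.1 ± 5.60% GFRA2, and in BE(2)C it was 97.4 ± 1.77% GFRA2. In SH-SY5Y, where all were low, GFRA2 took 55.1 ± 18.8% and GFRA3 42.3 ± 20.9%. RET was 2.01 ± 0.285 times the co-receptor sum in Kelly, 8.004 ± 1.64 times in BE(2)C and 33.2 ± 11.4 times in SH-SY5Y. The libraries of the lines did not overlap in this ratio, and each pair of lines gave p = 0.1 in a two-sided exact permutation test, the smallest that 3 libraries against 3 allow.

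**Figure D2:**
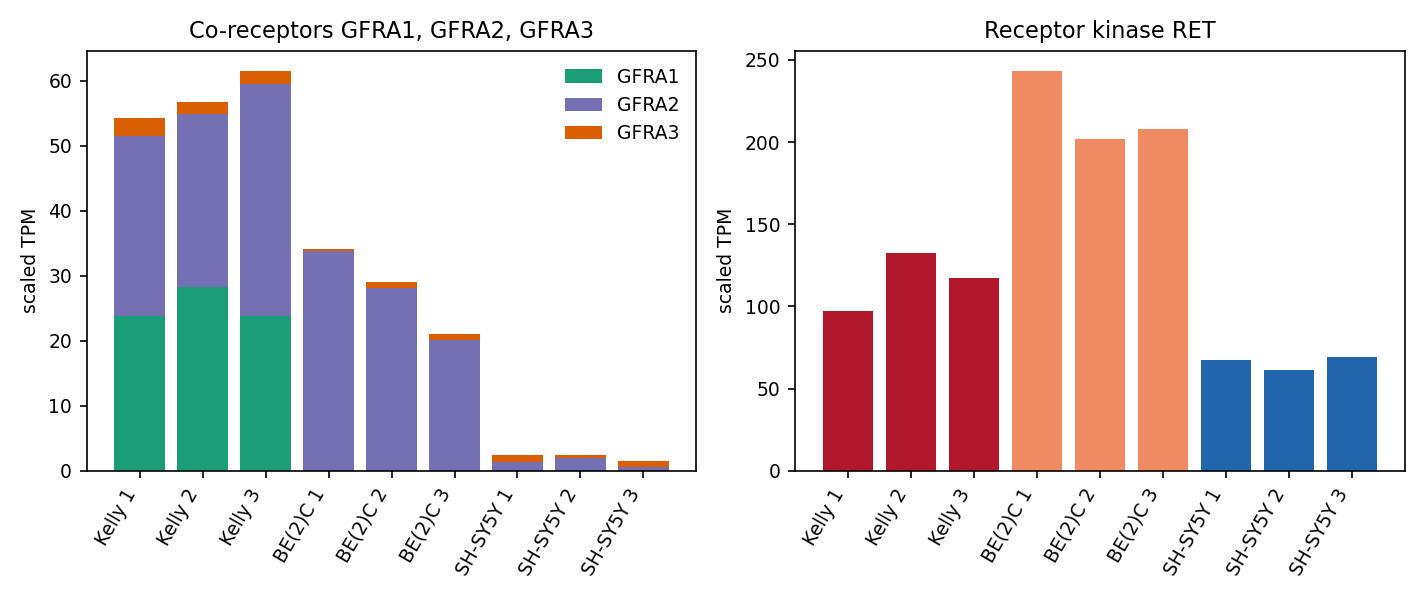
Levels in scaled TPM (y axes, from 0) in each library (x axes): left, GFRA1, GFRA2 and GFRA3 stacked; right, RET. GFRA1 forms a visible part of the stack in the Kelly libraries alone, BE(2)C stacks are nearly all GFRA2, and SH-SY5Y stacks stay under 2.5 while RET there is above 61.

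NGFR, which encodes p75NTR, ran the other way, with its high level in SH-SY5Y. It was at 2.90, 1.95 and 1.15 scaled TPM in Kelly and at 1.53, 0.689 and 0.560 in BE(2)C, against 17.6, 20.1 and 17.9 in SH-SY5Y. All 6 libraries of the amplified lines were below all 3 of SH-SY5Y. The log2 fold change against SH-SY5Y was -2.74 ± 0.26 in Kelly (limma, adjusted p = 2.32e-05) and -3.37 ± 0.26 in BE(2)C (adjusted p = 5.23e-06). Kelly and BE(2)C overlapped, with a difference of 0.63 ± 0.26 that did not pass (adjusted p = 0.0718). It did pass without Kelly replicate 3 (0.85, adjusted p = 0.0269), without BE(2)C replicate 1 (0.84; adjusted p = 0.0270) and without the first replicate of both lines (0.63; adjusted p = 0.0490). Library totals only also made it pass (0.78; adjusted p = 0.0319). Over all 19 alternatives its adjusted p ran from 0.0269 to 0.350. The difference was at most 1.06 in these, under the largest spike-in difference of Kelly against BE(2)C. Of the 9 tested genes within 500 kb of NGFR, 3 were called higher and 0 lower in Kelly than in SH-SY5Y. In BE(2)C, 2 of the 9 were called higher and 0 lower than in SH-SY5Y.

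NGFR is also a marker of Schwann cell precursors and of mesenchymal-type neuroblastoma cells, so those markers were set beside it. SOX10, the defining regulator of the glial lineage, was at 0.144 to 0.534 scaled TPM in Kelly, 0.733 to 1.77 in BE(2)C, against 0.583 to 0.799 in SH-SY5Y. The 12 glial and Schwann cell precursor markers summed to 274 to 315 in Kelly, 88.4 to 100.2 in BE(2)C, against 232 to 235 in SH-SY5Y. NES, which encodes the intermediate filament nestin, made up most of the sum in Kelly (mean 251) and SH-SY5Y (mean 183). In BE(2)C, NES averaged 46.2 and PMP22, also of the list, 38.2. Of the 12 markers, 6 could be tested, and 3 were higher and 1 lower than in SH-SY5Y in each of Kelly and BE(2)C. With deposited values that became 1 higher and 1 lower in Kelly, and 3 higher and 2 lower in BE(2)C. The 15 mesenchymal markers summed to 425 to 551 in Kelly, 487 to 580 in BE(2)C, against 814 to 827 in SH-SY5Y. TWIST1, a transcription factor gene, made up most of the sum in SH-SY5Y, with a mean of 269 in Kelly, 228 in BE(2)C, against 645 in SH-SY5Y. Of 12 tested, 3 were higher and 8 lower in Kelly than in SH-SY5Y, and 3 were higher and 6 lower in BE(2)C. NOTCH2, a receptor of that list, was at 0.145, 0.0936 and 0.163 in Kelly and at 0.0825, 0.278 and 0.0560 in BE(2)C, against 22.9, 28.0 and 26.8 in SH-SY5Y. Other markers of the list went against NGFR. SPARC, a matrix protein gene, averaged 151 in Kelly and 90.8 in BE(2)C, against 32.1 in SH-SY5Y, and CD44, a hyaluronan receptor gene, averaged 11.0 in Kelly and 3.46 in BE(2)C, against 0.419 in SH-SY5Y. VIM, which encodes vimentin, averaged 28.4 in Kelly and 191 in BE(2)C, against 59.0 in SH-SY5Y. VIM thus went against NGFR in BE(2)C only, and was lower in Kelly than in SH-SY5Y, as NGFR was. The list thus did not move as one with NGFR, and the part of its genes in the NGFR result was not tested.

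The Trk kinase genes NTRK2 and NTRK3 were close to the detection filter, and only in SH-SY5Y above it. NTRK2 stood at 0.331, 0.243 and 0.0468 scaled TPM in Kelly and at 0, 0 and 0.0644 in BE(2)C, against 1.66, 1.77 and 1.60 in SH-SY5Y. NTRK3 stood at 0.345, 0.0704 and 0.0496 in Kelly and at 0.618, 0.336 and 0.304 in BE(2)C, against 1.505, 1.46 and 1.35 in SH-SY5Y. In both genes the SH-SY5Y libraries were above all 6 others. Both genes were tested only through SH-SY5Y, which limits what the lower calls in the other lines show. NTRK2 was lower than in SH-SY5Y in Kelly (-1.16 ± 0.14; limma, adjusted p = 1.30e-04) and in BE(2)C (-1.39 ± 0.14, adjusted p = 3.33e-05). NTRK3 was lower in Kelly (-1.09 ± 0.16, adjusted p = 3.93e-04) and in BE(2)C (-0.79 ± 0.16, adjusted p = 0.00242), the last call ending with quantile normalization (-0.40, adjusted p = 0.0818). Between Kelly and BE(2)C neither gene passed: NTRK2 differed by 0.23 (95% interval -0.09 to 0.56, adjusted p = 0.206) and NTRK3 by -0.30 (-0.67 to 0.07, adjusted p = 0.152). NTRK2 passed there with a pseudocount of 0.1 (1.24, adjusted p = 0.0478) and NTRK3 with quantile normalization (-0.54, adjusted p = 0.0309).

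SORT1, which encodes sortilin, varied least of the 8 over the 9 libraries, with a root mean square deviation of 0.21 on the log2 scale. It was at 48.4, 45.4 and 46.9 scaled TPM in Kelly, at 69.7, 65.3 and 65.9 in BE(2)C and at 59.6, 59.2 and 59.99 in SH-SY5Y. The lines did not overlap, with BE(2)C highest and Kelly lowest. SORT1 was lower in Kelly than in SH-SY5Y (-0.34 ± 0.07; limma, adjusted p = 0.00189). It was also lower in Kelly than in BE(2)C (-0.50 ± 0.07, adjusted p = 1.87e-04), a call that ended with library totals only (-0.19, adjusted p = 0.146). BE(2)C against SH-SY5Y gave 0.17 ± 0.07 (adjusted p = 0.0553), and its sign depended on the scaling: it was -0.29 with library totals only (adjusted p = 0.0303) and -0.37 with deposited values (adjusted p = 0.0137), and -0.04 with mitochondrial genes left out of the total (adjusted p = 0.605). Among neurotrophin receptors in the amplified lines, SORT1 was thus at 45.4 scaled TPM or more, while NTRK2, NTRK3 and NGFR stayed below 3.

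**Figure D3:**
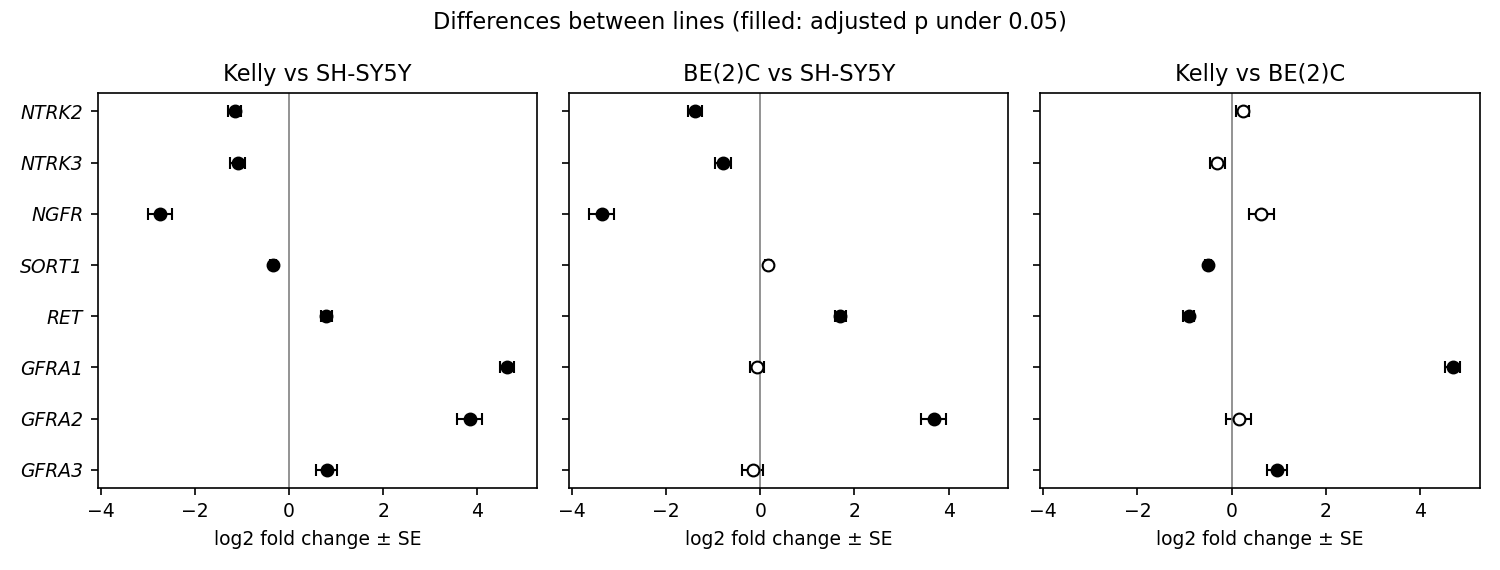
Log2 fold change of scaled TPM + 1 (x axis) of each receptor gene (y axis) for Kelly against SH-SY5Y, BE(2)C against SH-SY5Y and Kelly against BE(2)C; bars are the SE, and filled points had a limma adjusted p under 0.05. Co-receptor genes lie to the right and neurotrophin receptor genes to the left in Kelly against SH-SY5Y, while GFRA1 is near 0 in BE(2)C against SH-SY5Y.

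Counted together, 4 of the 8 receptors were higher and 4 lower in Kelly than in SH-SY5Y, where 28.1% of the 13076 tested genes were called higher and 27.2% lower. In BE(2)C against SH-SY5Y, 2 were higher and 3 lower (28.6% and 30.7% of all genes), and in Kelly against BE(2)C, 2 were higher and 2 lower (27.9% and 24.6%). NTRK2 and NTRK3 passed the filter through SH-SY5Y alone and GFRA1 through Kelly alone. GFRA3 reached the filter level in 3 Kelly libraries and 1 of SH-SY5Y, and so passed only with Kelly. These genes could hardly be tested without differing, and nothing is read from the counts. The libraries of Kelly and SH-SY5Y were apart in all 8 (63.7% of all genes), those of BE(2)C and SH-SY5Y in 6 (66.1%), and those of Kelly and BE(2)C in 4 (58.3%). In either direction 55.3% of genes were called in Kelly against SH-SY5Y, 59.4% in BE(2)C against SH-SY5Y and 52.5% in Kelly against BE(2)C. NGFR, GFRA1 and GFRA2 had log2 fold changes beyond 2.7 in size against SH-SY5Y wherever they were called, a size of difference that 4.21% of genes reached or passed in Kelly for NGFR and 2.02% in BE(2)C for GFRA2.

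RNA of RET ligands was also found in these lines, and the levels of GDNF, NRTN, ARTN and PSPN each differed in at least 1 comparison. Ligand protein was not measured. GDNF was at 1.85, 1.12 and 1.58 scaled TPM in Kelly and at 7.89, 18.3 and 18.2 in BE(2)C, against 0, 0 and 0.0506 in SH-SY5Y. BE(2)C libraries were the highest and SH-SY5Y libraries at or near 0, with log2 fold changes over SH-SY5Y of 3.87 ± 0.30 in BE(2)C (limma, adjusted p = 4.59e-06) and 1.30 ± 0.30 in Kelly (adjusted p = 0.00480), the Kelly call being lost when the values were used as deposited. GFRA1 was at or near 0 both in BE(2)C, where GDNF was highest, and in SH-SY5Y, where GDNF was lowest. NRTN, which encodes neurturin, was at 0.373, 0.481 and 0 in Kelly and at 8.62, 15.3 and 6.61 in BE(2)C, against 13.5, 12.2 and 10.3 in SH-SY5Y. It was low in Kelly against SH-SY5Y (-3.35 ± 0.29, adjusted p = 1.18e-05) and against BE(2)C (-3.07 ± 0.29, adjusted p = 2.60e-05). BE(2)C and SH-SY5Y overlapped in NRTN (-0.28 ± 0.29, adjusted p = 0.427).

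ARTN, which encodes artemin, was at 3.53, 10.3 and 5.26 scaled TPM in Kelly and at 0.471, 1.33 and 1.45 in BE(2)C, against 3.60, 3.996 and 3.41 in SH-SY5Y. It was lower in BE(2)C than in SH-SY5Y (-1.20 ± 0.33; limma, adjusted p = 0.0123) and did not pass in Kelly against SH-SY5Y (0.55 ± 0.33, adjusted p = 0.190). PSPN, which encodes persephin, was at 2.18 to 2.75 in Kelly, 2.15 to 2.53 in BE(2)C, against 3.06 to 5.27 in SH-SY5Y. It was lower in Kelly than in SH-SY5Y (-0.56 ± 0.19; limma, adjusted p = 0.0347), a difference smaller than the largest spike-in difference. PSPN was also called lower in BE(2)C than in SH-SY5Y. Its co-receptor gene GFRA4 was listed at 0 in all 9 libraries. Neurotrophin RNA was scarce: BDNF, NTF3 and NTF4 did not pass the filter, and the highest values were 1.31 for BDNF and 1.21 for NTF3, both in Kelly libraries. Of the 4 ligands tested, 1 was higher and 2 lower in Kelly than in SH-SY5Y and likewise in BE(2)C. Without Kelly replicate 1 and BE(2)C replicate 1, 2 were higher and 1 lower in Kelly and 1 higher and 1 lower in BE(2)C; with quantile normalization 0 were lower in BE(2)C.

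**Figure D4:**
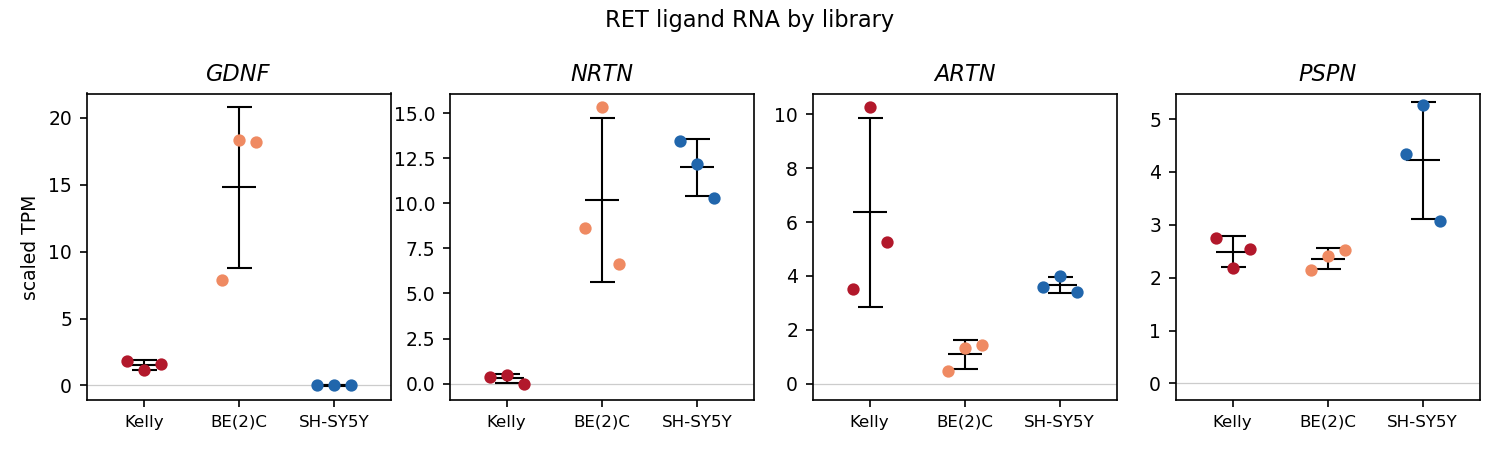
Levels in scaled TPM (y axes, linear) of the RET ligand genes GDNF, NRTN, ARTN and PSPN in Kelly, BE(2)C and SH-SY5Y (x axes); points are libraries, bars the mean ± SD (n = 3). GDNF is highest in BE(2)C, NRTN is near 0 in Kelly, and ARTN is lowest in BE(2)C.

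Among related receptors, a list of 12 genes that held sortilin relatives, p75NTR partners and other GDNF-binding proteins, 9 could be tested. In Kelly against SH-SY5Y, 6 were higher and 2 lower (median log2 fold change 0.75, against -0.0047 over all genes), but on values as deposited 2 were higher and 3 lower. RTN4R, the Nogo receptor, which pairs with p75NTR, averaged 44.0 scaled TPM in Kelly, against 12.2 in BE(2)C and 16.8 in SH-SY5Y (Kelly over SH-SY5Y 1.33 ± 0.23). LINGO1, the other subunit of that complex, averaged 34.9 in Kelly, 3.21 in BE(2)C, against 14.2 in SH-SY5Y; it was higher in Kelly (1.21 ± 0.18) and lower in BE(2)C (-1.85 ± 0.18) than in SH-SY5Y. NCAM1, a cell adhesion molecule that binds GDNF with GFRA1, averaged 75.5 in Kelly, 119 in BE(2)C, against 144 in SH-SY5Y, lower in Kelly than in SH-SY5Y by a log2 fold change of -0.93 ± 0.06. SDC3, a heparan sulfate proteoglycan that binds GDNF-family ligands, averaged 86.2 in Kelly, 13.9 in BE(2)C, against 48.8 in SH-SY5Y (0.81 ± 0.16 and -1.75 ± 0.16 against SH-SY5Y). In BE(2)C, FURIN, a protease that cleaves pro-neurotrophins, was higher (0.87 ± 0.12) and so was SORCS1, a sortilin relative (0.42 ± 0.12). SORL1, another relative, was lower in Kelly than in BE(2)C (-0.82 ± 0.15). All changes named here had limma adjusted p under 0.05, and 3 were higher, 3 lower and 3 not called in BE(2)C against SH-SY5Y. The 3 higher became 2 with library totals only, 1 with deposited values and 5 with quantile normalization. SORCS1 averaged 4.002 deposited TPM in BE(2)C, against 4.40 in SH-SY5Y, the opposite order to its scaled levels.

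Of 27 adaptor genes that link Trk or RET to the RAS and PI3-kinase pathways, 25 were tested. In Kelly against SH-SY5Y, 4 were higher and 14 lower (median -0.44), where 28.1% of all tested genes were higher and 27.2% lower. In BE(2)C against SH-SY5Y, 5 were higher and 15 lower (median -0.54, against -0.04 over all genes), where 28.6% of all genes were higher and 30.7% lower. The list itself was not tested. GRB10, an adaptor that binds receptor kinases including RET, was likewise high in Kelly: it was at 39.0, 39.0 and 40.1 scaled TPM in Kelly, against 0.0463, 0 and 0.0670 in BE(2)C and 0, 0 and 0.0381 in SH-SY5Y. SH2B2 (-2.56 ± 0.21 in Kelly, -1.63 ± 0.21 in BE(2)C) and the docking protein gene GAB1 (-1.38 ± 0.22 and -2.46 ± 0.22) were lower than in SH-SY5Y in both lines, and so was CBL, the ubiquitin ligase that turns over activated receptors, in Kelly (-1.40 ± 0.09). SHC2, a neuronal adaptor of Trk receptors, was at 1.10, 1.28 and 1.94 in BE(2)C, against 24.7, 27.4 and 20.8 in SH-SY5Y (-3.38 ± 0.21); Kelly against SH-SY5Y did not pass (-0.47 ± 0.21, adjusted p = 0.0869). DOK4, a docking protein for RET, was at 2181, 1483 and 1452 in BE(2)C, against 511, 506 and 507 in SH-SY5Y (1.72 ± 0.14). In Kelly against BE(2)C, 7 adaptors were higher and 5 lower, a balance that moved to 13 higher and 5 lower with library totals only and to 4 higher and 5 lower with deposited values; SHC3 (-1.71 ± 0.12) and SH2B3 (-1.63 ± 0.14) were among those lower.

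Of 15 p75NTR partners, 14 were matched and tested. In Kelly, 3 were higher and 7 lower than in SH-SY5Y, where 28.1% of all tested genes were higher and 27.2% lower. In BE(2)C, 3 were higher and 5 lower than in SH-SY5Y (28.6% and 30.7% of all genes). On values as deposited, 0 were higher and 12 lower in each. MAGEH1, of the MAGE family whose members bind the p75NTR death domain, was at 1.41, 2.73 and 1.58 scaled TPM in Kelly, at 37.7, 41.0 and 38.4 in BE(2)C and at 38.0, 38.9 and 36.6 in SH-SY5Y. MAGED1, its better known relative, was lower in Kelly than in SH-SY5Y (-1.59 ± 0.21; limma, adjusted p = 1.68e-04). MAPK8, the stress kinase JNK1, was lower in Kelly (-1.22 ± 0.24) and in BE(2)C (-2.20 ± 0.24), and KALRN, a guanine nucleotide exchange factor, was higher in Kelly (0.60 ± 0.12). In BE(2)C, the signalling genes TRAF6 (-0.98 ± 0.35) and TRAF4 (-0.51 ± 0.11) were lower and IRAK1 was higher (0.73 ± 0.09).

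Genes that respond to the RAS and MAP kinase pathway downstream of receptor kinases included changes of more than 3 log2 units in both directions. Of 18 tested among 23, 3 were higher and 8 lower in Kelly than in SH-SY5Y (median -0.36), and 7 were higher and 6 lower in BE(2)C (median 0.08), a balance that turned to 4 higher and 8 lower with library totals only. VGF, a neuropeptide precursor gene, was at 26.8, 27.4 and 28.0 scaled TPM in Kelly and at 290, 399 and 409 in BE(2)C, against 1407, 1449 and 1413 in SH-SY5Y. DUSP6, a phosphatase that dampens ERK, was at 8.04, 11.1 and 13.9 in Kelly and at 1.35, 2.97 and 2.10 in BE(2)C, against 104, 89.8 and 92.4 in SH-SY5Y. In both genes all Kelly and BE(2)C libraries were below all SH-SY5Y libraries, with VGF lowest in Kelly and DUSP6 lowest in BE(2)C. ETV4 (-3.93 ± 0.23 in Kelly) and SPRED3, an inhibitor of RAS signalling (-2.18 ± 0.18 in Kelly and -2.60 ± 0.18 in BE(2)C), were lower than in SH-SY5Y, as was SPRY1 in BE(2)C (-3.59 ± 0.18). PHLDA1 was higher in BE(2)C (4.61 ± 0.26), and DUSP4 was lower in Kelly than in BE(2)C (-2.57 ± 0.11). The immediate early gene FOS set libraries of 1 line apart, at 6.24, 141 and 156 in Kelly, 55.7, 1.09 and 2.22 in BE(2)C and 15.8, 14.3 and 17.6 in SH-SY5Y. Without Kelly replicate 1 and BE(2)C replicate 1, Kelly against SH-SY5Y had 5 higher genes of this list in place of 3, and the receptor counts against SH-SY5Y were as before.

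**Figure D5:**
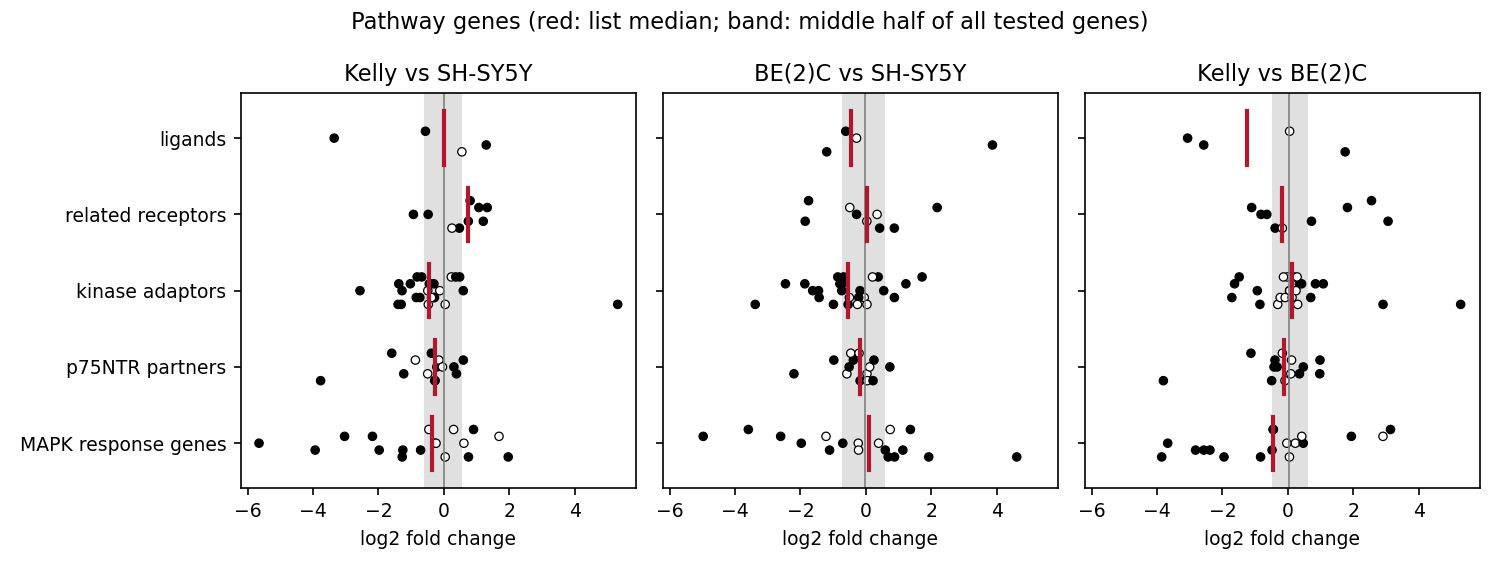
Log2 fold change (x axis) of the tested genes of each pathway list (y axis) in the 3 comparisons; filled points had a limma adjusted p under 0.05, red bars are list medians, and the grey band is the interquartile range of all 13076 tested genes. The median of the kinase adaptors lies to the left of 0 in both comparisons with SH-SY5Y, and MAPK response genes spread beyond the band on both sides.

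The genes whose profile over the 9 libraries lay nearest to each receptor's were found from the root mean square distance between log2 values centred on each gene's mean. For NGFR they were SYDE1, which encodes a GTPase-activating protein (distance 0.12), and IGSF8, an immunoglobulin-superfamily membrane protein (0.20), and 93 genes lay within 0.5. For GFRA1 they were GAGE1 (0.083) and THSD7B (0.11), at 24.7 and 24.1 scaled TPM in Kelly on average; GAGE1 was listed at 0 in the 2 other lines and THSD7B averaged 0 in BE(2)C and 0.0768 in SH-SY5Y; GAGE1 belongs to a family of near-identical copies, so its value is uncertain. For GFRA2 they were the chemokine gene CXCL12 (0.33) and EYA1, a transcriptional cofactor (0.34), and 33 genes lay within 0.5. RET lay nearest to the endoplasmic reticulum chaperone gene DNAJC3 and the glycosyltransferase gene EOGT (0.12 each). For the 4 other receptors, whose profiles varied less, between 2286 and 6049 genes lay within 0.5; the nearest were VPS16 and CLASP2 (NTRK2), PRX and EXOC1 (NTRK3), PTTG1IP and RHOA (SORT1), and EZH1 and RGS4 (GFRA3).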

How the data were processed

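The authors deposited 1 table of log10 values for 9 libraries and 19837 entries; from the values, these are log10(TPM + 1), since back-transformed libraries sum to between 966592 and 980009. HISAT 0.1.6, Salmon 0.3.2 and GRCh38 are named, with no roles, per the submitters' processing notes; the step from transcripts to genes is not stated there. Per the labels' protocols, RNA was extracted with Trizol and libraries were polyA-selected. Spike-ins (92) and reporter or selection entries (11) were left out of totals, and 28 entries with a date for a symbol out of tests. No column went unused. Scaled TPM is the share of the gene total divided by an unweighted trimmed-mean factor (30% of log ratios and 5% of levels trimmed at each end). limma 3.58.1 (trend) in R 4.3.3 tested log2(scaled TPM + 1) in 1 fit of all 9 libraries; 13076 genes reached 1 scaled TPM in 3 or more libraries and were tested, with Benjamini-Hochberg adjustment over all of them (two-sided, called under 0.05). Since the values are not counts, no count model was used. The fit was tested on simulated data. Of the tested symbols, 12556 matched GENCODE release 29.

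The receptors, 9 gene lists and rules were chosen with earlier results of these data known. Named genes are the receptors, up to 4 called genes per list and comparison with the largest changes and at least 10 scaled TPM in the higher line, and the 2 nearest profiles per receptor; others named, such as FOS and the marker and ligand genes, were chosen after their values were seen. Same-numbered libraries did not deviate together (correlations -0.05 to 0.03 over 9 pairs), so no replicate block was used. Alternatives were 4 scalings, a pseudocount of 0.1, no filter, a filter of 5, fits of 2 lines, a replicate block and leaving out each library; leaving out Kelly replicate 1 and BE(2)C replicate 1 together was added after the data were seen.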

Additional observations from a re-analysis of the deposited data

How the results depend on the processing

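Calls over all genes stayed within 1.5 times under every alternative run. Leaving out 1 library at a time gave 6453 to 7373 calls in Kelly against SH-SY5Y, 7011 to 7818 in BE(2)C against SH-SY5Y and 6227 to 6649 in Kelly against BE(2)C, and receptor counts of 4 higher and 4 lower, 2 higher and 3 lower, and 2 to 3 higher and 2 lower. With the replicate block the counts over all genes were 6980, 7544 and 6634, and no receptor's call changed. Receptor counts moved to 2 higher in Kelly against SH-SY5Y on values as deposited and to 1 lower in Kelly against BE(2)C with library totals only. With a filter of 5 in 3 libraries, NTRK2, NTRK3 and GFRA3 were not tested, which left 2 lower in Kelly and 1 lower in BE(2)C against SH-SY5Y and 1 higher in Kelly against BE(2)C. SORT1 in BE(2)C against SH-SY5Y turned to -0.29 with library totals only and -0.37 on values as deposited; the cause was not tested, but the median over all genes moved to -0.44 and -0.35 there, and in Kelly against SH-SY5Y to -0.43 on values as deposited. SORT1 passed there with no filter (adjusted p = 0.0345). The share of calls that were higher in BE(2)C against SH-SY5Y was 48.2%, against 18.9% as deposited, 23.8% for library totals only and 36.5% when mitochondrial genes were left out. It was 50.8% in Kelly against SH-SY5Y, against 15.1% as deposited, and 53.2% in Kelly against BE(2)C, against 74.2% with library totals only. Depth is unknown, so values near 0 are given as listed.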
